A study of Gallus gallus with 4 samples.

Results

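Chromosome 4 of the chicken carries an ancestral microchromosome fused to it as its short arm, and the H3K9me3 domains of this arm were compared with those of the rest of the chromosome. Every domain listed on chromosome 4 in cultured primordial germ cells (cPGCs) or embryonic stem cells (ESCs) was taken. It was assigned to the short arm when it started before 20 Mb and to the long arm otherwise. This gave 4443 domains of the 47621 on 30 chromosomes. The short arm held 857 of them, 397 in cPGCs and 460 in ESCs, and the long arm held 3586, 1767 in cPGCs and 1819 in ESCs. No domain crossed the 20 Mb boundary. The members were chosen by chromosome and start position, with earlier results of these data known. Each member is itself a domain called from H3K9me3 enrichment. Whether 20 Mb is the point of fusion on galGal5 was not checked, and the arms named here are the parts on either side of that position.

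The data come from chromatin immunoprecipitation followed by sequencing with an antibody against histone H3 trimethylated at lysine 9 (Abcam ab8898). One group was cultured cPGCs, the precursors of sperm and eggs, and the other was cultured ESCs, pluripotent cells of the early embryo. Each group had 1 immunoprecipitated library and 1 input library of the same cell type. The files give the first and last base of each domain on galGal5 and no count or height, so read depth, enrichment within a domain and detection limits are unknown. With 1 immunoprecipitated library per cell type, differences between cPGCs and ESCs have no replicate check and no p-value. The intervals given below are 95% intervals that take whole domains as the units counted. They treat neighbouring domains as independent and do not cover variation between cultures. Cell identity cannot be checked from domain positions.

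H3K9me3 is the main histone mark of constitutive heterochromatin. It is written by SUV39 and SETDB1 methyltransferases and read by heterochromatin protein 1, which compacts chromatin, and it is typical of pericentromeric repeats, telomere-proximal regions and silenced transposable elements. Avian genomes combine a few large macrochromosomes with many small, gene-dense microchromosomes. The short arm of chicken chromosome 4 is a separate microchromosome in many other birds, and its genes correspond to the conserved part of the mammalian X chromosome.

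Coverage by H3K9me3 domains was slightly lower on the short arm than on the long arm in both cell types, by less than the intervals can separate. In cPGCs, domains covered 24.97% of the short arm (4994100 bp) and 27.2% of the long arm (19406100 bp), a ratio of 0.917 (0.762 to 1.10). In ESCs, they covered 18.3% of the short arm (3662400 bp) and 20.6% of the long arm (14705700 bp), a ratio of 0.887 (0.765 to 1.03). Both intervals include 1. The order of the arms in cPGCs rested on the first 10 Mb of the long arm, since without 20 to 30 Mb the ratio became 1.06. In ESCs the ratio was then 0.975.

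Averaged over each arm, the short arm had fewer domains per megabase than the long arm, while median widths were similar. The short arm held 19.9 cPGC domains per Mb against 24.8 on the long arm, a ratio of 0.801 (0.718 to 0.893). In ESCs the density was 23.0 against 25.5 domains per Mb, a ratio of 0.901 (0.814 to 0.998), with an interval that nearly reaches 1. The density ratios were 0.844 in cPGCs and 0.948 in ESCs without 20 to 30 Mb, which was left out after seeing the data. With the boundary at 21 Mb they were 0.820 and 0.948. Density varied along the long arm. In segments of 10 Mb, the short arm held 21.3 and 18.4 cPGC domains per Mb. From 30 to 70 Mb the long arm segments held 19.1 to 20.9, near the short arm values. From 20 to 30 Mb the density was 32.6, and from 70 Mb onward 27.7 to 35.5. In ESCs the short arm segments held 25.6 and 20.4, and those from 30 to 70 Mb 19.7 to 28.9. The intervals do not cover this variation along an arm. The median cPGC domain was 7800 bp wide on both arms, with intervals of 6900 to 8400 bp on the short arm and 7500 to 8100 bp on the long arm. The median ESC domain was narrower, 5400 bp (4800 to 6000) on the short arm and 5700 bp (5700 to 6300) on the long arm, and these intervals overlap. Mean widths were 12580 bp in cPGCs and 7962 bp in ESCs on the short arm, and 10983 bp and 8085 bp on the long arm, so that the mean cPGC width was larger on the short arm although the medians were equal.

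Distances between neighbouring domains varied widely, and the medians did not separate the arms. The median gap between cPGC domains was 10650 bp (8100 to 14700) on the short arm and 9300 bp (8400 to 10200) on the long arm. Between ESC domains it was 17400 bp (13800 to 21300) and 15300 bp (14100 to 17100). The ratio of the medians, short arm to long arm, was 1.15 in cPGCs (0.794 to 1.75) and 1.14 in ESCs (0.807 to 1.51), and both intervals include 1. The longer gaps of cPGCs were longer on the short arm, with an upper quartile of 39375 bp against 29100 bp and a 95th percentile of 162900 bp against 124950 bp. The shortest gap was 1800 bp on either arm in either cell type.

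**Figure D1:**
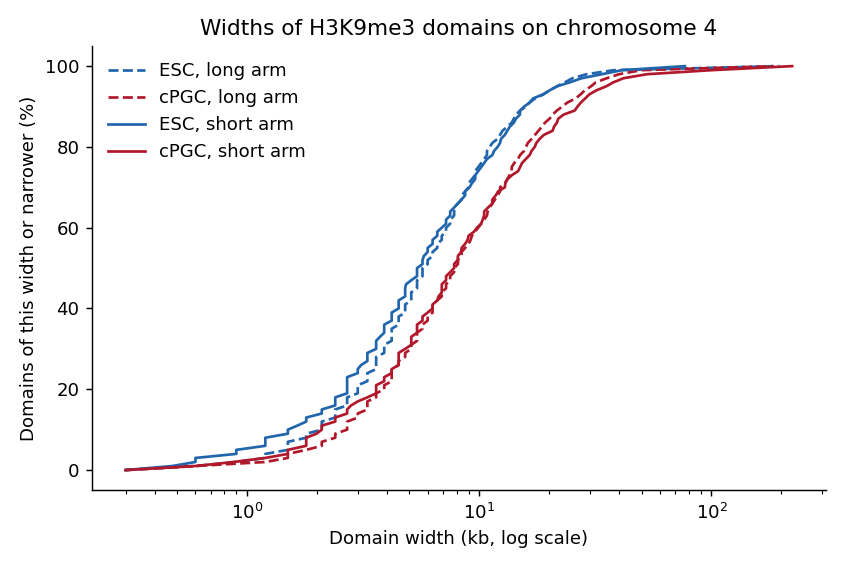
Distribution of domain width (x axis, kb on a log scale) on the short and long arms of chromosome 4, as the cumulative percent of domains (y axis) in cPGCs and ESCs. The medians are 7800 bp on both arms in cPGCs and 5400 and 5700 bp in ESCs, and the curves part mainly between cell types rather than between arms.

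Wide domains were found on both arms and held less of the cPGC domain bases on the long arm than on the short arm or over the genome. Domains of at least 20 kb were 65 of the 397 short arm cPGC domains, or 16.4% (13.1 to 20.3), against 231 of the long arm, or 13.1% (11.6 to 14.7), beside 19.3% of the cPGC domains of all 30 chromosomes. In ESCs they were 29 on the short arm, or 6.30% (4.43 to 8.91), and 110 on the long arm, or 6.05% (5.04 to 7.24), beside 7.28% of the ESC domains of all 30 chromosomes. These shares lay below the background in each case, but the short arm intervals included it in both cell types. The intervals of the arms overlap. In cPGCs the domains of at least 20 kb held 50.8% of the domain bases of the short arm and 37.8% of those of the long arm. In ESCs they held 25.2% and 23.9%. Over 30 chromosomes they held 52.7% in cPGCs and 26.2% in ESCs, so the short arm was near the genome.

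Domains of at least 50 kb numbered 9 on the short arm (2.27%) and 18 on the long arm (1.02%) in cPGCs, beside 3.33% over 30 chromosomes. In ESCs they numbered 2 (0.435%) and 11 (0.605%), beside 0.502%. On the short arm, 1 of the 9 cPGC domains lay before 2 Mb, 5 between 2 and 19 Mb and 3 between 19 and 20 Mb. On the long arm, 10 of the 18 lay between 20 and 30 Mb and 5 beyond 89 Mb, with 3 between 30 and 89 Mb. Both ESC domains of this width on the short arm lay in its last megabase. On the long arm, 3 of the 11 ESC domains lay between 20 and 30 Mb, 4 between 30 and 89 Mb and 4 beyond 89 Mb. On the long arm, cPGC domains of this width thus lay mostly between 20 and 30 Mb and beyond 89 Mb. Those between 30 and 89 Mb were chr4:83621701-83675100, chr4:84315601-84366600 and chr4:84388201-84441900. In ESCs, those between 30 and 89 Mb were chr4:45681001-45737700, chr4:84390301-84440400, chr4:85900501-85954200 and chr4:86554201-86627700. Neither cell type thus had them spread evenly along the arm. Only cPGCs had them in the interior of the short arm.

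**Figure D2:**
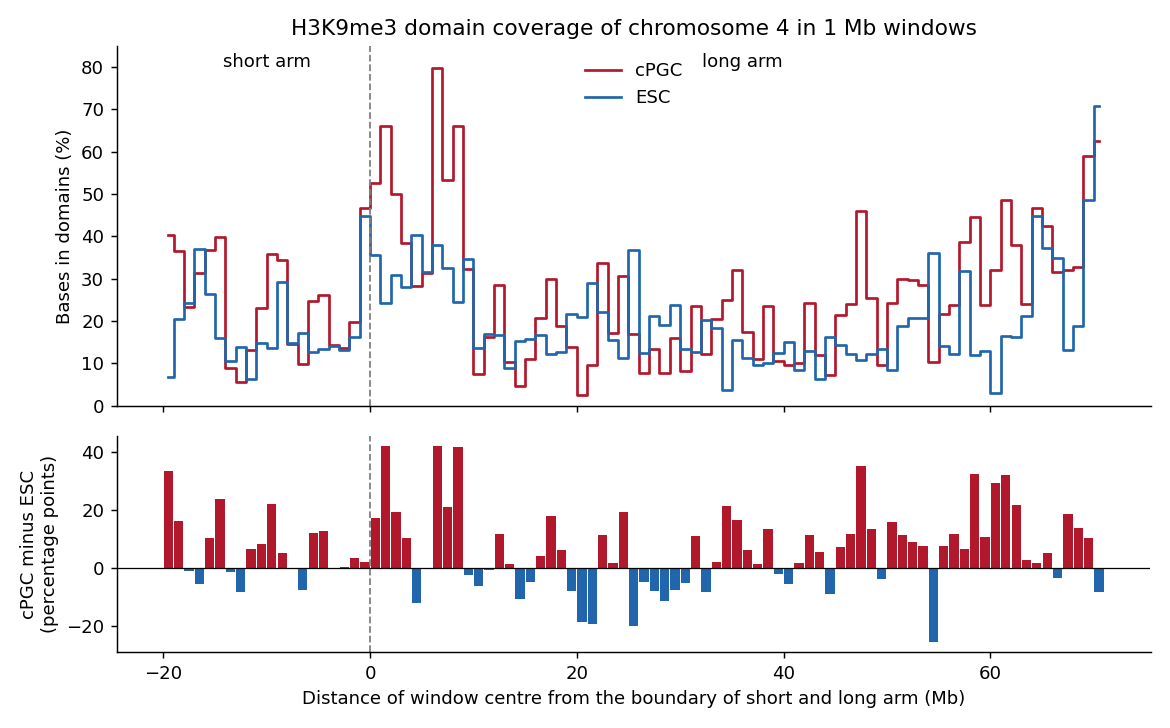
Upper panel, percent of each full 1 Mb window of chromosome 4 covered by H3K9me3 domains (y axis) in cPGCs (red) and ESCs (blue), against the distance of the window centre from the boundary of the arms at 20 Mb (x axis, Mb, short arm negative). Lower panel, cPGC minus ESC coverage in percentage points, where the difference is highest at 26 to 27 Mb (41.95), about as high at 21 to 22 Mb (41.85) and 28 to 29 Mb (41.72), and highest on the short arm in the first megabase (33.54).

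Coverage changed more from one megabase to the next than between the arms. Over the 20 windows of 1 Mb on the short arm, cPGC coverage ran from 5.73% through a median of 24.0% to 46.8%, and ESC coverage from 6.42% through 14.9% to 44.9%. Over the 71 full windows of the long arm the values were 2.51%, 23.9% and 79.9% in cPGCs and 2.97%, 16.5% and 70.7% in ESCs. Coverage was higher in cPGCs in 14 windows of the short arm and higher in ESCs in 6, against 47 and 24 on the long arm. Over the 916 windows of the genome these counts were 677 and 239. It was at least 1.5 times higher in cPGCs in 8 windows of the short arm (40%) and 31 of the long arm (43.7%), beside 47.6% of the 916 windows of the genome. It was at least 1.5 times higher in ESCs in 2 windows (10%) and 14 windows (19.7%), beside 13.1% of the genome.

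The 20 Mb position itself was not marked by a step in coverage. At 18 to 19 Mb, domains covered 19.8% in cPGCs and 16.4% in ESCs. At 19 to 20 Mb, on the short arm, they covered 46.8% and 44.9%, and at 20 to 21 Mb, on the long arm, 52.7% and 35.6%. The last short arm domain of cPGCs was chr4:19957801-19959600 and that of ESCs chr4:19977301-19981800. The first long arm domains were chr4:20058901-20069100 in cPGCs and chr4:20000701-20002200 in ESCs. With the boundary at 20 Mb, the high coverage began on the short arm side and ran on into the long arm.

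In segments of 10 Mb, coverage was similar in the short arm segments and varied among those of the long arm. The short arm has only the segments from 0 to 10 Mb and from 10 to 20 Mb, so this does not show that it was even. In windows of 1 Mb, the quartiles of cPGC coverage lay slightly further apart on the short arm than on the long arm. Those of ESC coverage lay closer together on the short arm. On the short arm cPGC coverage was 25.9% from 0 to 10 Mb and 24.0% from 10 to 20 Mb, and ESC coverage was 17.6% and 18.99%. From 20 to 30 Mb it was 49.9% in cPGCs and 32.0% in ESCs, with median widths of 11400 bp and 7500 bp. It then fell to 16.2% and 15.1% at 30 to 40 Mb. From 40 to 50 Mb, ESCs had the higher coverage, 21.2% against 15.6%. From 50 to 70 Mb cPGC coverage stayed between 18.4% and 19.03% and ESC coverage between 12.2% and 12.8%. Toward the end coverage rose to 27.5% and 18.8% at 70 to 80 Mb and to 38.7% and 25.5% at 80 to 90 Mb. In the last stretch, from 90 Mb, cPGC domains held 69.4% of the bases and ESC domains 75.2%.

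The excess of domain bases in cPGCs was distributed accordingly. Domain bases in cPGCs outnumbered those in ESCs 1.36-fold (1.10 to 1.69) on the short arm and 1.32-fold (1.2004 to 1.4507) on the long arm, a net difference of 1331700 bp and 4700400 bp. The segment from 20 to 30 Mb held 1785900 bp of the long arm difference, or 38.0%. Without it the long arm ratio was 1.253. Between 30 and 70 Mb coverage was 17.3% in cPGCs and 15.3% in ESCs. There, ESCs had the higher value in 18 of 40 windows, beside 239 of the 916 of the genome. The short arm excess was largest at the start of the arm. Coverage was 40.2% in cPGCs and 6.70% in ESCs from 0 to 1 Mb, and 36.5% and 20.4% from 1 to 2 Mb. Without the first and last 1 Mb of the short arm, its ratio was 1.31.

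The first 2 Mb of the short arm held its largest difference between the cell types. The widest short arm domain of cPGCs, chr4:778801-1001400, spanned 222600 bp, of which 6 ESC domains covered 11.3%. It was part of a run of 12 cPGC domains from 572701 to 1113600 that covered 88.0% of these bases, where 16 ESC domains covered 11.5%. The widest cPGC domain of the arm without any ESC overlap, chr4:627001-661200 (34200 bp), lay in the same run. The first 0.5 Mb of the arm was sparse in both cell types, with 3.12% covered in cPGCs and 4.44% in ESCs, while from 0.5 to 1 Mb the values were 77.4% and 8.96%. Few domains were thus called in the terminal sequence of the short arm, and the block of cPGC domains began after it. Domains were called from read pairs mapping to 1 location, and the mappability of this sequence was not examined.

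The interior of the short arm was mixed. Apart from the first block, the cPGC domains of at least 50 kb with under 20% of their bases in ESC domains were chr4:5306701-5406000 (99300 bp, 6.95% covered in ESCs) and chr4:10880701-10944000 (63300 bp, 17.5%). The wider domain chr4:10654501-10774800 spanned 120300 bp, of which ESC domains covered 71.3%. In the other direction, the widest ESC domain with no cPGC overlap was chr4:13101901-13142100, 40200 bp wide. The longest stretch without a cPGC domain, chr4:6991201-7657500 (666300 bp), held 17 ESC domains over 17.2% of its bases, and the window from 7 to 8 Mb had the lowest cPGC coverage of the arm, 5.73% against 13.9% in ESCs. From 8 to 9 Mb the order was opposite, 13.1% in cPGCs and 6.42% in ESCs, the lowest ESC value of the arm.

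On the short arm side of the boundary the cell types had nearly equal coverage. A stretch of 516000 bp, chr4:18840901-19356900, held no domain of either cell type and was the longest such stretch on chromosome 4. Its mappability was not examined. The stretch was followed by 624900 bp, chr4:19356901-19981800, covered at 74.9% by 14 cPGC domains and at 71.8% by 23 ESC domains. This block held the widest ESC domain of the arm, chr4:19468801-19545600 (76800 bp), of which cPGC domains covered 93.8%. It also held cPGC domains of 127500 bp at chr4:19557001-19684500 and 124200 bp at chr4:19773601-19897800, covered in ESCs at 85.9% and 86.7%. The wide cPGC domains at the 2 ends of the short arm therefore differed in whether ESCs shared them.

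On the long arm, the megabase from 26 to 27 Mb had the highest cPGC coverage of chromosome 4, 79.9% by 43 domains, against 38.0% by 35 domains in ESCs. Wide ESC domains with little cPGC coverage lay close by. The domain chr4:24982201-25052700 (70500 bp) was covered at 11.1% in cPGCs, and chr4:24846601-24894600 (48000 bp), the widest ESC domain of the long arm with no cPGC overlap, lay before it. The widest cPGC domain with no ESC overlap was chr4:77591401-77628600 (37200 bp). From 74 to 75 Mb, domains covered 36.03% in ESCs and 10.4% in cPGCs, the largest ESC excess of the arm. From 40 to 41 Mb they covered 20.9% in ESCs and 2.51% in cPGCs, the lowest cPGC coverage of the chromosome, and from 80 to 81 Mb cPGC domains covered 32.2% and ESC domains 2.97%.

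Long gaps on the long arm also differed between the cell types. The longest stretch without a cPGC domain, chr4:82704001-83380800 (676800 bp), was covered at 3.24% by 4 ESC domains, and the longest without an ESC domain, chr4:80359501-80797200 (437700 bp), at 21.7% by 11 cPGC domains. At the end of the arm both cell types had their widest long arm domain in nearly the same place, chr4:91063801-91248600 (184800 bp) in cPGCs and chr4:91052401-91248900 (196500 bp) in ESCs. The cPGC domain lay wholly within the ESC domain, 98.8% of which was covered in cPGCs. The last stretch from 90 Mb was also the segment with the most similar sets of bases, since 75.5% of the bases in a domain of either cell type were in a domain of both. The 2 arms thus ended differently, with a block shared by both cell types at the end of the long arm and one found mainly in cPGCs near the end of the short arm.

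Overlap between the cell types was similar on the arms. On the short arm, 210 of 397 cPGC domains (52.9%, 48.0 to 57.8) overlapped an ESC domain by at least 1 bp, and on the long arm 919 of 1767 (52.01%, 49.7 to 54.3), beside 57.0% over 30 chromosomes. Of the ESC domains, 254 of 460 (55.2%, 50.6 to 59.7) on the short arm and 1030 of 1819 (56.6%, 54.3 to 58.9) on the long arm overlapped a cPGC domain, beside 65.4% over 30 chromosomes. Both shares were below those of the genome on both arms, but the interval of the short arm cPGC share included the genome value. Overlapping domains were the wider ones, with a median of 10950 bp against 5100 bp for cPGC domains without overlap on the short arm and 10800 bp against 6000 bp on the long arm. In ESCs these medians were 6600 against 4200 bp and 7200 against 4800 bp. A wider domain has more bases that can meet another, and this was not tested apart from the overlap.

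Where domains met, the cPGC domain was usually the wider. The overlapping cPGC domain with the most shared bases was wider than the ESC domain for 190 of 254 short arm ESC domains (74.8%, 69.1 to 79.7) and 720 of 1030 on the long arm (69.9%, 67.0 to 72.6). Conversely, the ESC partner was wider for 71 of 210 short arm cPGC domains (33.8%, 27.8 to 40.4) and 374 of 919 on the long arm (40.7%, 37.6 to 43.9). On the short arm, 129 ESC domains (28.04%) lay wholly within a cPGC domain and 36 cPGC domains (9.07%) wholly within an ESC domain. On the long arm these were 438 (24.1%) and 209 (11.8%). Among all domains the cPGC median was also the larger, 7800 bp on both arms against 5400 and 5700 bp in ESCs. Taking the partner with the most shared bases can also favour wide partners. Whether cPGC partners were wider more often than these conditions alone would give was not tested. The shares of wider partners and of nested domains were not obtained for the genome.

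A cPGC domain met 2 or more ESC domains in 48 cases on the short arm (12.1%, 9.24 to 15.7) and 188 on the long arm (10.6%, 9.29 to 12.2), beside 14.1% over 30 chromosomes. An ESC domain met 2 or more cPGC domains in 19 cases on the short arm (4.13%, 2.66 to 6.36) and 124 on the long arm (6.82%, 5.75 to 8.07), beside 8.10%. All 4 shares were below the genome value, but the interval of the short arm cPGC share included it. The highest number met by a cPGC domain was 6 on either arm, and by an ESC domain 3 on the short arm and 6 on the long arm.

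Each domain base was placed in a shared core (in a domain of both cell types), an expansion (in 1 cell type, within a domain that overlaps the other) or a specific domain (no overlap). In cPGCs the short arm had 40.6% of its domain bases in the shared core, 33.2% in expansions and 26.2% in specific domains, and the long arm 38.1%, 28.7% and 33.2%. In ESCs the short arm had 55.4%, 12.9% and 31.7%, and the long arm 50.3%, 17.2% and 32.5%. Expansions therefore took a larger share of cPGC bases and a smaller share of ESC bases on the short arm than on the long arm. Over the genome the cPGC shares were 40.6%, 33.0% and 26.3%, close to the short arm, while the long arm was lower in expansions and higher in specific domains. These shares of bases carry no interval. Most bases of 1 wide domain, chr4:778801-1001400 (222600 bp, 11.3% in ESC domains), count among the short arm expansions, and the shares were not obtained without it. The ESC shares over the genome were 61.7%, 14.7% and 23.5%. Both arms thus had less of their ESC bases in the shared core and more in specific domains than the genome. Over chromosomes 1 to 3 the ESC shares were 70.1%, 13.8% and 16.1%, and over the chromosomes of 15 to 25 Mb 45.7%, 16.9% and 37.4%. In the shared core and in specific domains, both arms lay between these groups of chromosomes. The shared bases were 2027400 bp, or 10.1% of the short arm, and 7392900 bp, or 10.4% of the long arm. Neither cell type had a domain over 66.9% of the short arm and 62.5% of the long arm.

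**Figure D3:**
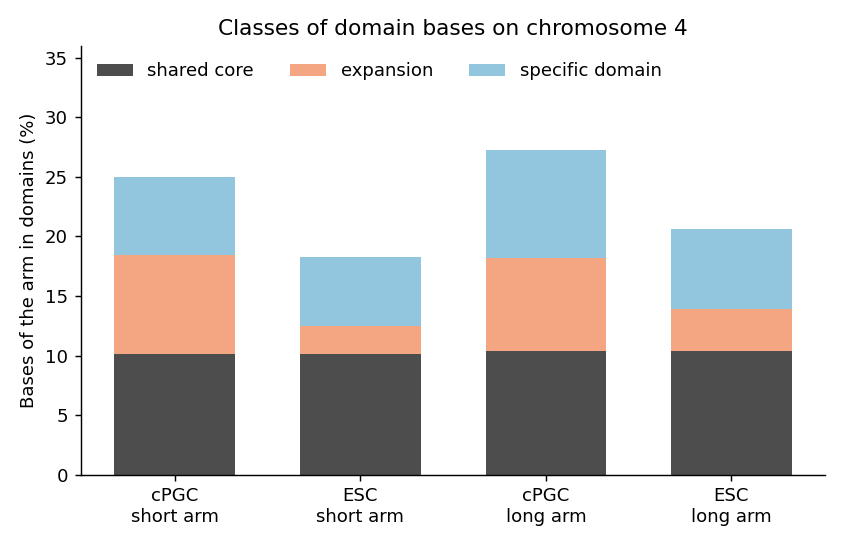
Percent of the bases of each arm that lie in domains (y axis) in cPGCs and ESCs, each bar divided into shared core, expansion and specific domain. The shared core is 10.1% of the short arm and 10.4% of the long arm in both cell types, and the whole bars are 24.97% and 18.3% on the short arm and 27.2% and 20.6% on the long arm.

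In the ratio of cPGC to ESC coverage, both arms lay between the largest chromosomes and those of the size of the short arm. The comparison was made with the 6 chromosomes of 15 to 25 Mb and with chromosomes 1 to 3. The ratio of cPGC to ESC domain bases was 1.36 on the short arm and 1.32 on the long arm. It was 0.964 over the 6 chromosomes of similar size (0.797 to 1.21 in single chromosomes) and 1.86 over chromosomes 1 to 3. The short arm stood above 21 of the 28 other chromosomes with domains of both cell types and the long arm above 20. Those above both arms were chromosomes 1 to 3 and the small chromosomes 20, 23, 24 and 26, the latter at 1.40 to 1.46. Chromosome 17, at 1.33, lay between the arms. A ratio as high as that of the short arm was thus also found on small chromosomes outside the range of 15 to 25 Mb. The interval of the short arm ratio, 1.10 to 1.69, included the highest value of the 6 chromosomes, 1.21. Coverage in cPGCs of 24.97% on the short arm was slightly above the range of the 6 chromosomes, 15.4% to 23.8%. The first and last megabases of the arm were covered at 40.2% and 46.8%, and the comparison was not repeated without them. ESC coverage of 18.3% was within the range of the 6 chromosomes, 15.8% to 19.7%. The short arm held 19.9 cPGC domains per Mb against 13.3 to 17.0, and 23.0 ESC domains per Mb against 20.6 to 24.0.

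The share of cPGC domains with overlap was low on chromosome 4, but by little. Every one of the 28 other chromosomes had a higher share of cPGC domains that overlapped an ESC domain than either arm. Chromosomes 2, 3, 5, 6, 7, 8, 9 and 13 nevertheless lay within the interval of the short arm, 48.0% to 57.8%. Of these, chromosomes 5 and 8, at 53.2% and 53.9%, also lay within that of the long arm, 49.7% to 54.3%. Chromosomes 9 and 13, at 57.5% and 55.8%, were among those of 15 to 25 Mb. The share was 55.8% to 67.2% among the chromosomes of 15 to 25 Mb. For ESC domains the short arm share of 55.2% was above the 41.7% to 51.4% of those chromosomes. Its interval, 50.6% to 59.7%, included the highest of them, chromosome 13 at 51.4%. No test of these differences was made, since the chromosomes share the same libraries and each has a single value per cell type.

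**Figure D4:**
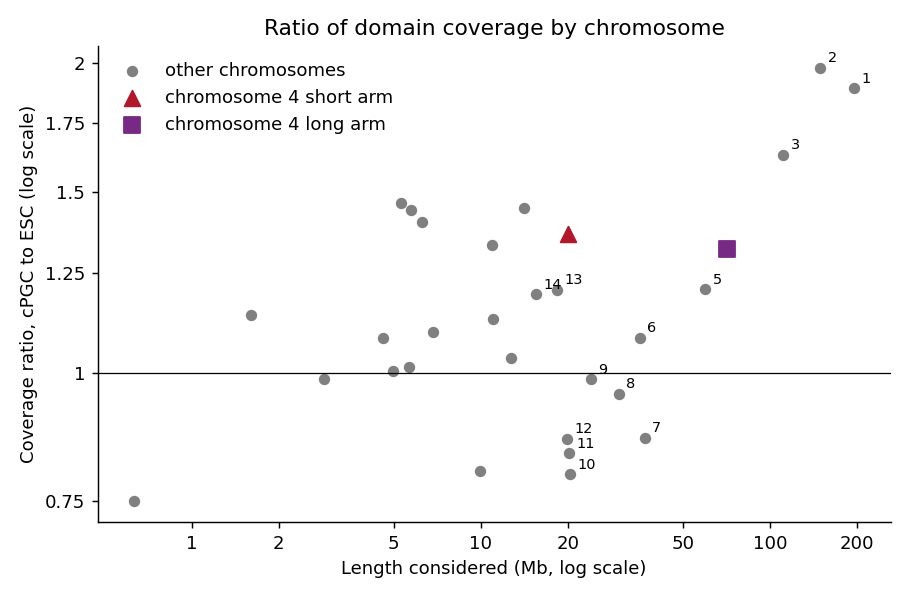
Ratio of cPGC to ESC domain coverage (y axis, log scale) against the length up to the last domain (x axis, Mb, log scale) for 28 other chromosomes (grey points, chromosomes 1 to 3 and 5 to 14 numbered) and the arms of chromosome 4. The short arm lies at 1.36, above the 0.797 to 1.21 of the 6 chromosomes of 15 to 25 Mb, and the long arm at 1.32. The smaller chromosomes 20, 23, 24 and 26 lie above both arms.

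The domain positions were also read against gene loci. The gene table used holds 1999 loci sorted by Ensembl identifier and is a shortened copy of the study's table, so that shares over it are not those of all genes, and 29 of those on chromosome 4 are described here. Of these, 26 start between 1 and 2 Mb on the short arm and 3 are on the long arm, so the genes describe 1 neighbourhood of the short arm and not the arm. In cPGCs 11 of the 26 short arm loci were overlapped by a domain, beside 28.9% of the 1999, and in ESCs 13, beside 37.8%. At least 50% of the locus was covered in 10 of 26 in cPGCs, beside 15.2%, and in 6 of 26 in ESCs, beside 14.7%. Neighbouring loci share domains and are not independent. Of the merged bases of the short arm loci, 25.4% were in cPGC domains and 18.4% in ESC domains.

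Overlap in cPGCs alone was found at 3 loci. *WNT11B*, a secreted Wnt ligand, was covered at 60.5% by chr4:1217101-1218900. *AWAT1*, an acyltransferase that makes wax esters, and *P2RY4*, a receptor for extracellular nucleotides, were covered at 47.9% and 51.9% by the same domain, chr4:1235401-1239900.

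Overlap in ESCs alone was found at 5 loci. *ERCC6L*, a DNA translocase of mitotic chromosomes, was covered at 100% by chr4:1682701-1687800, a domain that also reached 4.79% of *OCRL*, an inositol phosphatase. *GPR119*, a receptor for lipid amides, and *SLC25A14*, a mitochondrial carrier, were covered at 38.5% and 25.4% by the same domain, chr4:1570801-1573800. The locus ENSGALG00000003841, annotated as diacylglycerol kinase kappa, was covered at 37.5% by chr4:1855801-1860300. None of these 8 loci had a domain in the other cell type.

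At 8 loci domains were present in both cell types, with a higher percent covered in cPGCs at 5, in ESCs at 2 and the same at 1. *INPPL1*, a phosphoinositide phosphatase, had 92.9% of its bases in cPGC domains and 60.4% in ESC domains, and *ARR3*, the cone arrestin, at 72.5% and 59.2%. A single cPGC domain, chr4:1243201-1258200, spanned both, while ESCs had separate domains at chr4:1245001-1250400 and chr4:1253101-1257300. *CYSLTR1*, a leukotriene receptor, had 72.6% of its bases in cPGC domains and 37.8% in ESC domains.

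Another 5 loci had domains in both cell types. The locus ENSGALG00000004127 was covered at 100% in both, by chr4:1378201-1387200 in cPGCs and chr4:1377901-1383000 in ESCs. *LPAR4*, a receptor for lysophosphatidic acid, had 52.7% of its bases in cPGC domains and 57.7% in ESC domains. The locus ENSGALG00000004113, annotated as similar to P2Y purinoceptor 10, lay wholly (100%) in a cPGC domain and to 10.1% in an ESC domain. *TBX22*, a T-box factor of palate development in mammals, had 75.2% in cPGC domains and 100% in ESC domains, and *MID2*, a ubiquitin ligase that binds microtubules, at 65.1% and 26.4%.

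The other 10 short arm loci had no domain in either cell type. They included *KIF4A*, a chromosome-associated kinesin, *TAF9B*, a subunit of the general transcription machinery, *AIFM1*, a mitochondrial flavoprotein, *BCORL1*, a transcriptional corepressor, and *MARS2*, the mitochondrial methionyl-tRNA synthetase. *PDZD11*, *ITM2A*, *ENOX2*, *PIN4* and ENSGALG00000004169 were the others. On the long arm, *LAMTOR3*, a scaffold of lysosomal signalling, and *SPR*, an enzyme of tetrahydrobiopterin synthesis, had no domain. *RPL9*, a ribosomal protein, was covered at 6.44% in ESCs by chr4:69724801-69727500 and had no cPGC domain.

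**Figure D5:**
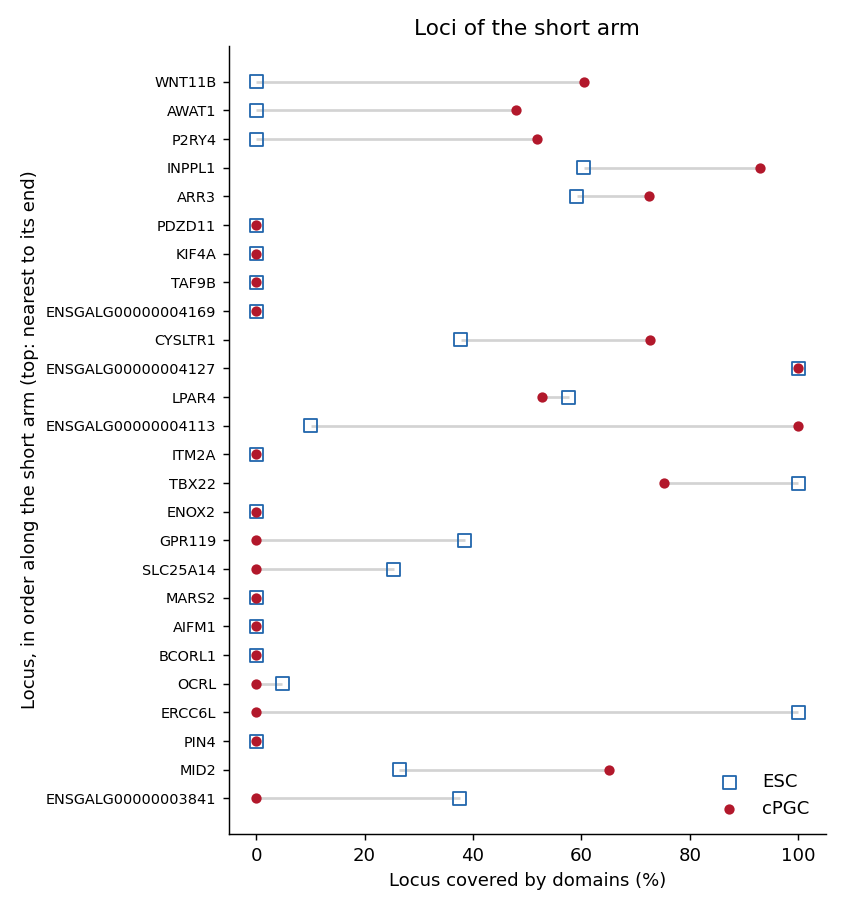
Percent of each of the short arm loci starting between 1 and 2 Mb covered by H3K9me3 domains (x axis) in cPGCs (red points) and ESCs (blue squares), with loci in order from the end of the arm downward. Of 26 loci, 8 are overlapped in both cell types, 3 in cPGCs only, 5 in ESCs only and 10 in neither.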

How the data were processed

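Chromatin of cPGCs and ESCs was immunoprecipitated with an H3K9me3 antibody, and input DNA was sequenced beside it (per the labels). The authors aligned read pairs to galGal5 with Bowtie 2, kept proper pairs mapping to 1 location, called islands with SICER in 300 bp windows and broad peaks with MACS2, and retained islands of very low false-discovery rate or meeting a broad peak, for main autosomal scaffolds. Tool versions beyond bcl2fastq 2.0 and FastQC 0.11.3 are not given in the sources used here. The deposited values are domain start and end positions, counted from 0, with no count or signal, and 1 was added for printing.

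Coverage, width, gap and overlap values were obtained in Python 3.11.15 (pandas 2.3.3, numpy 2.4.6; scipy 1.17.1 for intervals, matplotlib 3.10.9 for plots). Coverage is percent of bases up to the last domain (91268100 bp for chromosome 4, 71268100 bp for the long arm). Shares carry 95% Wilson intervals, medians order-statistic intervals, ratios of counts conditional binomial intervals, and ratios of covered bases intervals on the log scale with whole domains as units (variance from the squared widths). Routines were tested on simulated domains, and 7 of 7 checks passed, some of which only required a value past a set threshold. The simulated domains were drawn independently, so the checks do not show how the intervals behave for clustered domains. Gene loci came from a shortened copy of the study's supplementary gene table, used for positions and names only. The RefSeq table of GRCg7b, a later assembly, was used for names only: 23 of 25 symbols were found, all 23 on chromosome 4. No sequence of galGal5 was used here.

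Members, gene lists and regions were chosen with earlier results of these data known. Named loci are the loci of the gene table that start between 1 and 2 Mb or on the long arm and are overlapped by a domain, with the free ones counted, and an item that the rule selects is not reported here. Named regions are the widest domains, the widest without overlap, the longest gaps, and the windows of highest, lowest and most different coverage, plus other domains of at least 50 kb and the runs at 0.57 and 19.36 Mb, which were chosen after their values were seen. Alternatives moved the boundary, joined domains, set a minimum width, changed the overlap rule or left out arm ends. Leaving out 20 to 30 Mb and the widest domains was added after seeing the data.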

Additional observations from a re-analysis of the deposited data

How the results depend on the processing

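Of 113 values of 14 results under alternatives, 102 stayed within the interval of the reported value and 11 lay outside it. No read counts, replicates or alternative domain calls were used, so effects of depth, of the domain callers or of a single library were not tested. No paired analysis was possible because each cell type has 1 library of each kind. Without 20 to 30 Mb (chosen after seeing the data), the short-to-long ratio of cPGC coverage went from 0.917 to 1.06, on the other side of 1 but within its interval, and the long arm overlap shares were 49.5% of cPGC and 51.9% of ESC domains. The ratios of coverage also moved with the boundary, within their intervals, to 0.866 in cPGCs and 0.807 in ESCs at 19 Mb and to 0.980 and 0.937 at 21 Mb. Without the first and last 1 Mb of each arm, which includes 1 Mb on both sides of the boundary, the cPGC coverage ratio was 0.871. With domains of at least 3000 bp the short arm ESC overlap share was 59.8%. With at least 5000 bp it was 61.3%, the long arm cPGC share 46.3% and the ESC median width ratio 1.08. Joining domains 3000 bp or less apart gave a long arm cPGC share of 55.4%. Requiring 50% of the bases of a domain gave 35.0% and 33.6% of cPGC domains and 49.3% and 46.5% of ESC domains on the short and long arms.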
